A study of Mus musculus with 6 samples.

Results

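The T cell receptor (TCR) complex and its first signalling steps are described here through 9 genes, out of 23992 gene symbols in the deposited table: Cd3e, Cd3d, Cd3g and Cd247, which encode the signalling chains of the receptor, the coreceptor gene Cd4, the kinase genes Lck, Zap70 and Txk, and the adaptor gene Lat. They were chosen by name, and for each symbol the transcript row with the highest summed count was used. RNA of mouse regulatory T cells (Treg cells), which express Foxp3 and restrain immune responses, was sequenced in 6 libraries. The 3 libraries labelled WT stand for Foxp3YFP-Cre/Y mice and the 3 labelled KO for Foxp3YFP-Cre/YCrlf2fl/fl mice, in which Cre driven by Foxp3 removes the floxed part of Crlf2, the receptor subunit for the cytokine TSLP. Mice of both groups were CD45.2 and carried the Foxp3-linked YFP and Cre, and their age is not given in the sources used here. Cells were sorted as live, CD4 positive and YFP positive from pooled lymph nodes and spleen, per the labels, so Cd4 belongs to the sort as well as to the gene set. The labels also mention a sort of naive CD4 T cells of CD45.1 mice, without saying how it bears on these libraries. Each sample description names the opposite strain, and groups were taken from title and genotype. Going by the series title, the study asked whether TSLP acts on Treg cells to maintain their identity.

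Crlf2, the targeted gene, was at 92.8, 146 and 105 CPM (counts scaled to 1000000 per library and between libraries by the trimmed mean of M values, TMM) in WT replicates 1 to 3. In KO replicates 1 to 3 it was at 9.06, 6.72 and 3.55 CPM, which goes with the titles. Foxp3 was at 474, 437 and 200.1 CPM in WT and 386, 489 and 426 CPM in KO, so the groups overlapped (log2 fold change 0.23, SE 0.30, adjusted p in edgeR = 0.763). Totals over the rows used ran from 1439736 counts in WT replicate 2 to 18352401 in KO replicate 3. A total of 12720 genes could be tested. WT replicate 3 stood apart. Its markers of red blood cells took 9.88% of the counts (0.117% to 0.468% in the other libraries; some globin genes among them are near-identical), of B cells 0.0299% (0.00145% to 0.00277%) and of natural killer cells 0.0360% (0.000561% to 0.00236%). Macrophage markers took 0.0365%, 0.0759% and 0.697% in WT replicates 1 to 3 and 0.255%, 0.265% and 0.276% in KO replicates 1 to 3. They were thus higher in KO than in the WT libraries that remain when WT replicate 3 is left out, and their part in the values given without it was not tested. All 5 Treg markers, Foxp3 among them, were detected in every library, with 0.103% of the counts in WT replicate 3 and 0.226% to 0.253% in the others. Lung epithelial markers, 10 of 10 detected in every library, took 7.55%, 1.70% and 2.16% in WT and 1.59%, 1.96% and 0.241% in KO, although the labels give lymph nodes and spleen as the source. The name of the deposited table mentions lung, and the part of such RNA in the results was not tested beyond the covariate fits given with them. In sorted cells sequenced in bulk, fewer cells of a type and less RNA per cell cannot be told apart.

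The TCR itself binds peptide on MHC but has no signalling tail, and relies on the CD3 chains, whose tyrosine motifs are phosphorylated by Lck, brought to the receptor by CD4. ZAP-70 docks on these motifs and phosphorylates LAT, a membrane scaffold on which Tec kinases such as TXK help to activate phospholipase C. Treg cells depend on TCR signals for their suppressive function.

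The upstream sequences of 4 transcription starts are shown because they belong to the gene that fell in KO (Txk), to 2 CD3 genes whose KO libraries all lay above the WT libraries (Cd3e and Cd3g), and to the start of the Lck row with the most counts. Each holds the 250 bases before the start, 5′ to 3′ on the gene's strand, from RefSeq (GRCm38.p6, the assembly of mm10). Capitals mark the letters AGGAAG on either strand, a core bound by factors of the ETS family. The windows lie at chr5:72752778-72753027 (Txk, minus strand), chr9:45009612-45009861 (Cd3e, minus strand), chr9:44980432-44980681 (Cd3g, minus strand) and chr4:129573642-129573891 (Lck, minus strand).
Txk: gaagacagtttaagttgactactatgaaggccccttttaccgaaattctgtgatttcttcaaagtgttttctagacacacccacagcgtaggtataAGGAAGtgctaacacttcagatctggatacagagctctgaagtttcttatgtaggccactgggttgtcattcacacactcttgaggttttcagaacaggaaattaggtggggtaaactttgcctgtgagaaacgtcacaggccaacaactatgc
Cd3e: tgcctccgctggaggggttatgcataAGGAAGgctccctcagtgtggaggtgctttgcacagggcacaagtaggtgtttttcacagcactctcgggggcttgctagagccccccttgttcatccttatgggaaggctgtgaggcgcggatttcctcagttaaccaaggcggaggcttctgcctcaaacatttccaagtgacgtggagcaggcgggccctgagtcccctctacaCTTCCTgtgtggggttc
Cd3g: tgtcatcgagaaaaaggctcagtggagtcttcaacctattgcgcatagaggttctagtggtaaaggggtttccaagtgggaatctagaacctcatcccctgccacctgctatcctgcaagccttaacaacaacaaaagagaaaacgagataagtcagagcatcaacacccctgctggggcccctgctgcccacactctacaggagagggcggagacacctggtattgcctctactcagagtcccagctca
Lck: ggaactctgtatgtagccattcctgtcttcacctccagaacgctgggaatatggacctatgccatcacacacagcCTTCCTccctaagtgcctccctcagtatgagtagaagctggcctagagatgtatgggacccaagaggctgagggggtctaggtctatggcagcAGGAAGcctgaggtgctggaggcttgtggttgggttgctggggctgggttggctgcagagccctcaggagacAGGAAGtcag

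Of the 9 genes, 8 had an entry in that promoter table, with 12 windows, and Cd4 had none. AGGAAG was present in windows of 7 of the 8 genes, and 29.5% of all 32851 windows of this length held it. The exception was Cd3g, whose single window had no match. Of the 12 windows, 9 held AGGAAG. The Txk window shown is that of the row used, and a second Txk window, at chr5:72736603-72736852, had no match. The second Lck window, at chr4:129558373-129558622, had a match. CANNTG, the E-box, was also found for 7 of 8 genes (66.2% of all windows), TGTGGT, a RUNX core, for 3 (14.0%), and TTCNNNGAA, the palindrome that STAT factors bind, for 1, Cd3d (7.02%). Both strands were searched, and matches of different motifs may overlap. Genes with several windows had more chances of a match than single windows. The matches describe letters in these windows only.

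Txk was the one gene of the 9 that was called in KO by edgeR, and it fell. The other 8 were not called: fitted log2 fold changes of 7 were positive, between 0.20 and 0.54, and that of Cd247 was -0.02. Across all tested genes edgeR called 1.74% (0.983% lower and 0.755% higher in KO), and of the 9 genes it called 1. The median log2 fold change of the 9 was 0.33, against -0.04 over all 12720 tested genes. Without WT replicate 3 these medians were 0.17 and -0.01. None of the 9 was called higher by edgeR or limma-voom. An unadjusted edgeR p under 0.05 upward was found for 4 of the 9, against 6.74% of all tested genes (9.13% downward and 15.9% in either direction). DESeq2 called 2 of the 9 higher, Cd3g and Cd4, and 2.89% of all tested genes. For 4 of the 9 genes no KO library lay within the WT range: Cd3e, Cd3g and Cd4 with KO above and Txk with KO below. Such a separation was seen for 22.0% of all tested genes, with KO above for 10.4% and below for 11.5%. WT replicate 3 had the lowest CPM of all libraries for 8 of the 9 genes, all but Txk, for which it had the highest. KO replicate 3 had the highest CPM for 7.

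**Figure D1:**
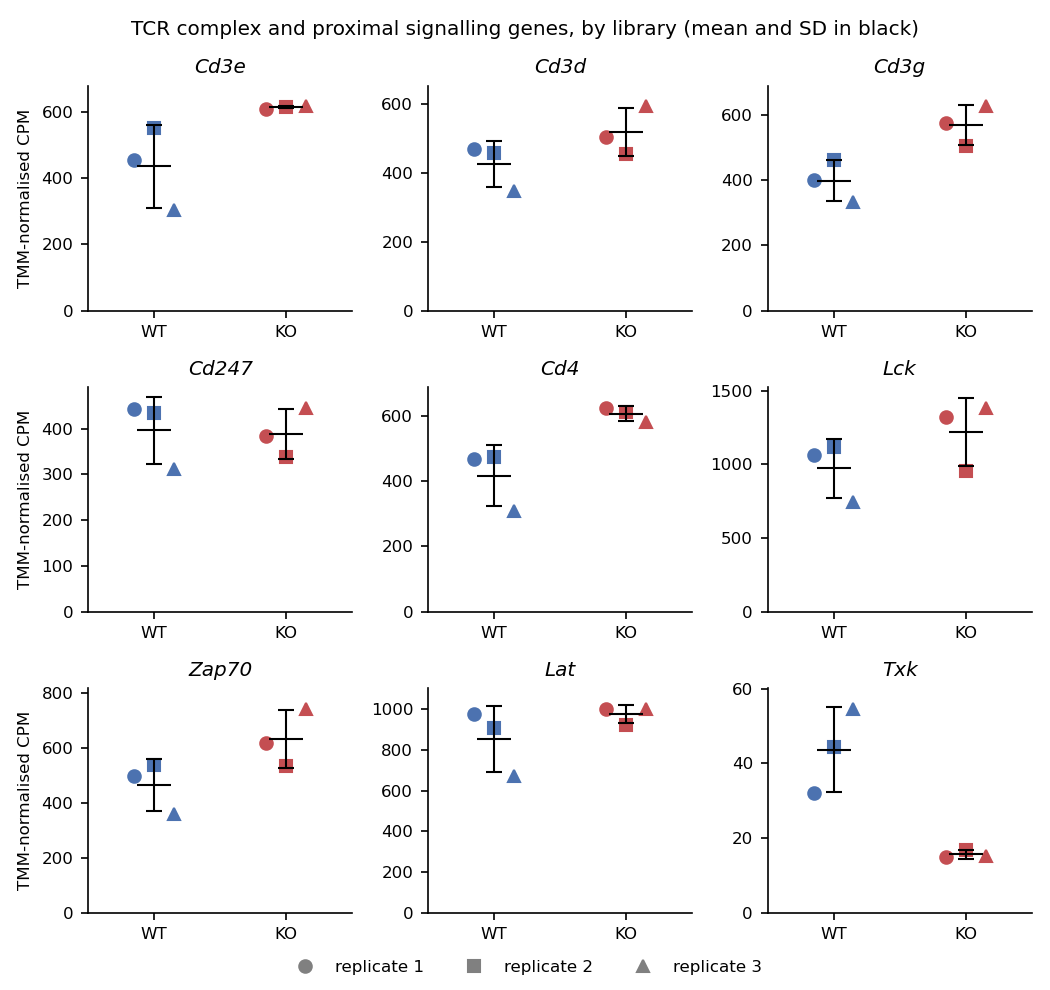
TMM-normalised CPM (vertical axis, from 0) of each of the 9 genes in the 3 WT (blue) and 3 KO (red) libraries; marker shape gives the replicate, and black lines the mean and SD of each group. WT replicate 3 (triangle) is the lowest point for 8 genes and the highest for Txk, whose KO libraries all lie at 14.8 to 16.9 CPM.

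Among the receptor chains, Cd3e encodes CD3 epsilon, which forms dimers with both CD3 delta and CD3 gamma. It was at 453, 550 and 303 CPM in WT replicates 1 to 3 and at 609, 613 and 616 CPM in KO replicates 1 to 3. The KO libraries were nearly equal and lay above every WT library, while WT replicate 3 was far below the other 2. The log2 fold change was 0.50 (SE 0.20, 95% interval 0.05 to 0.94, edgeR adjusted p = 0.265), and it was 0.30 without WT replicate 3.

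Cd3g encodes CD3 gamma. It was at 400, 461 and 334 CPM in WT and at 574, 503 and 625 CPM in KO, again without overlap. Its log2 fold change was 0.52 (SE 0.14, interval 0.18 to 0.85, edgeR adjusted p = 0.130). DESeq2 gave an adjusted p = 0.0193 for it, the lowest over the alternatives, which reached 0.424. Cd3d, which encodes CD3 delta, was at 471, 458 and 349 CPM in WT and 506, 456 and 594 CPM in KO. The groups overlapped, since KO replicate 2 was below 2 WT libraries, and the log2 fold change was 0.28 (SE 0.15, interval -0.07 to 0.63, edgeR adjusted p = 0.418), and 0.16 without WT replicate 3.

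Cd3g, Cd3d and Cd3e are neighbours on chromosome 9 (mm10). Cd3g occupies 44969572 to 44980431 on the minus strand, Cd3d 44981786 to 44987339 on the plus strand and Cd3e 44998740 to 45009627 on the minus strand. Cd3g and Cd3d are transcribed away from each other across 1354 bases, and 11400 bases separate Cd3d from Cd3e. An antisense gene, Gm48719, overlaps 3557 bases of Cd3e, and Gm48720, on the strand of Cd3e, overlaps 1206 bases. These are overlaps of whole genes, introns included, and overlap with the counted exons was not examined. Without a stated strand setting, reads of Gm48719 and those of Cd3e cannot be told apart where they overlap.

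Cd247 encodes CD3 zeta, the chain with the most signalling motifs of the complex. It was at 442, 435 and 311 CPM in WT and at 383, 338 and 446 CPM in KO. The ranges overlapped almost fully, and the log2 fold change of -0.02 had an interval of -0.41 to 0.36 (edgeR adjusted p = 0.966). Its sign changed under several alternatives. The table holds 5 transcript rows of Cd247 (chromosome 1, 165788681 to 165877277, plus strand). The row used had 2.09 to 2.34 times the counts of each of the other 4 rows in the same library, so the level of Cd247 depends on the row. Its transcript ends at 165862066, before the start of the Pou2f1 gene on the opposite strand at 165865154. Gm16565, on the strand of Cd247, overlaps 687 bases of the gene. Before that transcript end, Gm23402, Gm32999, Gm37856 and Gm37469 overlap it on the opposite strand. Overlap of these genes with the counted exons was not examined.

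Cd4, the coreceptor that binds MHC class II and carries Lck to the receptor, was at 468, 474 and 309 CPM in WT and at 626, 614 and 582 CPM in KO. KO libraries lay above all WT libraries. The log2 fold change was 0.54 (SE 0.17, interval 0.16 to 0.93, edgeR adjusted p = 0.156). DESeq2 gave an adjusted p = 0.0313, and over the alternatives the value ran up to 0.411. Without WT replicate 3 the log2 fold change was 0.37. Cd8a, which marks CD8 T cells, had 3, 0 and 104 reads in WT replicates 1 to 3 and 1, 10 and 4 reads in KO replicates 1 to 3. The other CD8 marker listed, Cd8b1, had 122, 14 and 303 reads in WT replicates 1 to 3. In KO replicates 1 to 3 it had 80, 278 and 277 reads.

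Lck encodes the Src-family kinase that phosphorylates the CD3 tails and ZAP-70. It was at 1062, 1117 and 746 CPM in WT and at 1320, 956 and 1387 CPM in KO, with KO replicate 2 inside the WT range. The log2 fold change was 0.33 (SE 0.19, interval -0.11 to 0.76, edgeR adjusted p = 0.464), and 0.17 without WT replicate 3. Of the 3 Lck rows, the row used begins at the upstream start (chromosome 4, 129573641, minus strand), and its upstream sequence is shown above. It had 1.05 to 1.07 times the counts of the 2 rows that begin about the downstream start (129558391 and 129558372). Because these rows can count the same reads, the ratio does not measure the use of either start.

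Zap70 encodes the kinase that docks on phosphorylated CD3 chains. It was at 498, 540 and 360 CPM in WT and at 618, 534 and 744 CPM in KO. KO replicate 2 was just below the highest WT library. The log2 fold change was 0.44 (SE 0.18, interval 0.03 to 0.85, edgeR adjusted p = 0.278), and 0.29 without WT replicate 3. Lat, the scaffold that ZAP-70 phosphorylates, was at 979, 908 and 670 CPM in WT and at 1001, 924 and 1003 CPM in KO. Without WT replicate 3 its log2 fold change was 0.05, against 0.20 with all libraries (SE 0.15, interval -0.14 to 0.53, edgeR adjusted p = 0.574).

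**Figure D2:**
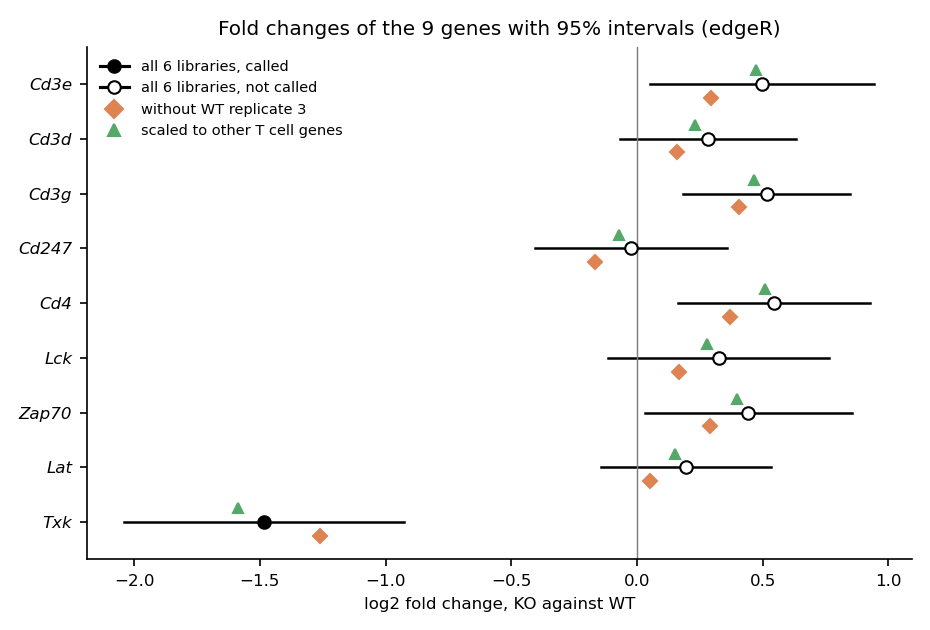
Log2 fold change of KO against WT (horizontal axis) for each of the 9 genes; circles and lines give the edgeR estimate and its 95% interval, filled where called, diamonds the estimate without WT replicate 3 and triangles the estimate scaled to 11 other T cell and leukocyte genes. Txk, at -1.48, stands apart from the other 8, which lie between -0.02 and 0.54.

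Txk (chromosome 5, 72695978 to 72752777, minus strand) encodes TXK, also called RLK, a Tec-family kinase of T cells. Its counts were 239, 65 and 578 reads in WT replicates 1 to 3 and 152, 211 and 291 reads in KO replicates 1 to 3. Scaled, these were 32.0, 44.5 and 54.7 CPM in WT and 14.8, 16.9 and 15.2 CPM in KO. Every WT library was higher than every KO library, and the KO libraries differed little among themselves. Txk fell by 1.48 on the log2 scale (SE 0.24, interval -2.04 to -0.93, edgeR adjusted p = 0.0298), with group means of 43.7 ± 11.4 CPM for WT and 15.6 ± 1.11 CPM for KO (SD, n = 3 each).

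The size of the Txk difference varied less than its call. Its log2 fold change lay between -1.71 and -1.18 over all 19 alternatives, of which 12 kept the call and 7 did not. DESeq2 and limma-voom called Txk lower (adjusted p = 3.27e-05 and 0.0289). It was called without WT replicate 3 (-1.26, adjusted p = 0.0310) and without WT replicate 1 (-1.67, adjusted p = 0.0375). It was not called without WT replicate 2 (adjusted p = 0.0816) or without KO replicates 1, 2 or 3 (adjusted p = 0.185, 0.0833 and 0.188), with log2 fold changes of -1.54 to -1.44 in these 4 fits. Scaled to 11 other T cell and leukocyte genes it was -1.59 (adjusted p = 0.0601), and with the summed lung epithelial markers in the model -1.71 (adjusted p = 0.0725). Both Txk rows of the table moved alike, the row used having 1.12 to 1.26 times the counts of the other. Because both rows can count the same reads, their likeness adds no separate support.

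Natural killer cells also express Txk. Their 6 markers had 0.00103% and 0.00236% of the counts in WT replicates 1 and 2, against 0.000561% to 0.000950% in KO, and 3 of the 6 were at 0 in WT replicate 1. In WT replicate 3, which had the highest Txk level, Ncr1 had 419 reads, Klrb1c 386 and Gzma 3199, while Ncr1 had 3 to 6 reads in every other library. The fit of Txk without WT replicate 3 is given above. The part of natural killer or other cell types in the Txk levels was not tested in any library.

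Levels of different genes were compared per kilobase of transcript, scaled to a sum of 1000000 over all symbols of a library, without TMM. On this scale, averaged over the 6 libraries, Lat was the highest (1150), followed by Lck (811), Cd3g (743), Cd3e (577), Cd3d (553), Zap70 (396), Cd247 (358), Cd4 (261) and Txk (18.7). Lat was the first, Cd4 the eighth and Txk the ninth in every library. Of neighbours in this order, Lck and Cd3g changed places in KO replicate 2, and Cd3e and Cd3d in WT replicates 1 and 3 and KO replicate 3, so these pairs did not differ beyond their spread. Zap70 and Cd247 changed places between the groups, Cd247 being above Zap70 in all 3 WT libraries and below it in all 3 KO libraries. With the longest row per symbol, Cd247 was at 94.6, below Cd4. Group means of Lat were 937 ± 307 in WT and 1362 ± 52.8 in KO, and those of Cd3e 419 ± 193 and 735 ± 7.80 (SD, n = 3 each). Lacking TMM, these means are not a measure of the difference between groups. The fitted log2 fold changes were 0.20 for Lat and 0.50 for Cd3e.

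Ratios within a library do not depend on the scaling between libraries. Relative to Cd3e per kilobase, Cd4 was at 0.479, 0.3999 and 0.474 in WT and at 0.477, 0.464 and 0.439 in KO, and Cd3g at 1.24, 1.18 and 1.55 in WT and 1.32, 1.15 and 1.42 in KO. For both genes the groups overlapped. Cd247 was at 0.831, 0.673 and 0.876 of the Cd3e level in WT and at 0.536, 0.469 and 0.617 in KO, all KO libraries being below all WT libraries. Its mean log2 ratio to Cd3e differed by -0.55 between KO and WT, and by -0.67 to -0.46 with single libraries left out.

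Lat was at 2.51, 1.92 and 2.58 of the Cd3e level in WT and at 1.91, 1.75 and 1.90 in KO, which separates the groups only narrowly. Txk was at 0.0449, 0.0515 and 0.115 of the Cd3e level in WT and at 0.0155, 0.0175 and 0.0157 in KO. Cd247, Lat and Txk were thus 3 of 8 genes whose ratio to Cd3e was lower in KO without overlap, none was higher without overlap, and 34.5% of all tested genes had such a lower ratio (36.0% in either direction), a share close to that of the 8. Zap70 relative to Cd247, a pair chosen after its values were seen, was at 0.871, 0.961 and 0.894 in WT and at 1.25, 1.22 and 1.29 in KO, with little spread in either group. The log2 difference of this ratio was 0.47, or 0.38 with the longest rows. Zap70 relative to Lck was at 0.455, 0.469 and 0.468 in WT and 0.455, 0.543 and 0.520 in KO, which overlapped. The ratios are given without a test; an exact permutation test of 3 against 3 libraries cannot give a p below 0.1.

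**Figure D3:**
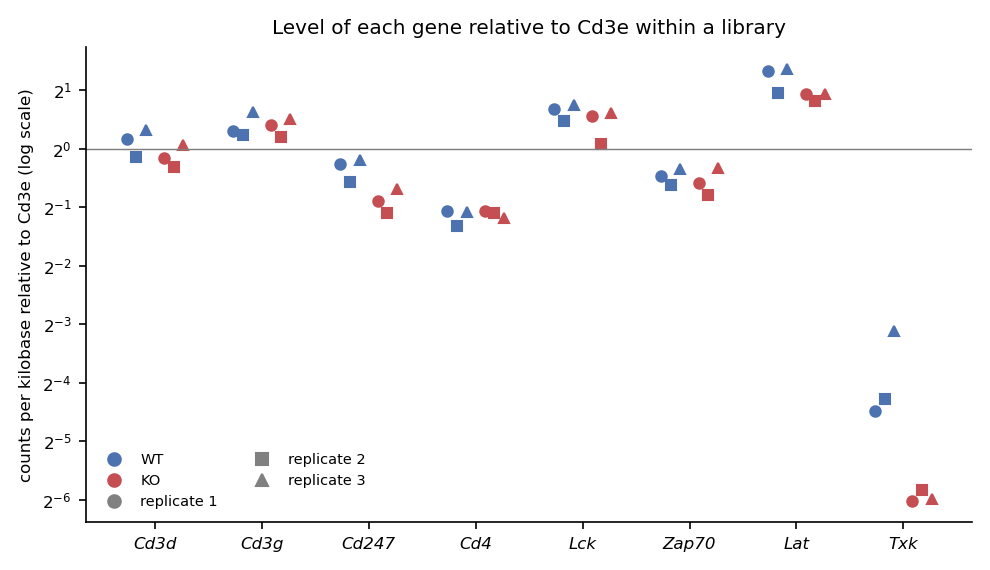
Level per kilobase of 8 genes relative to Cd3e in the same library (vertical axis, log scale), for WT (blue) and KO (red), with marker shape giving the replicate. Cd4 and Cd3g overlap between groups, Cd247 and Lat are lower in KO without overlap, and Txk lies at 0.0155 to 0.0175 in KO and 0.0449 to 0.115 in WT.

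Beyond the 9 genes, 52 other genes of the TCR pathway were examined as a list, and all passed the low-count filter. edgeR called 2 of them higher in KO and none lower, and 6 upward and 3 downward had an unadjusted p under 0.05, against 6.74% and 9.13% of all tested genes. DESeq2 called 4 higher and 3 lower (2.89% and 3.90% of all genes), and limma-voom 2 higher and 1 lower (1.05% and 1.38%). The median log2 fold change was 0.06, with 28 positive and 24 negative values. The share called, 2 of 52, is to be read against the 1.74% of all genes.

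Both called genes encode negative regulators of proximal signalling. Ptpn22, a phosphatase that acts on Lck and ZAP-70, was at 138, 176 and 136 CPM in WT and at 294, 246 and 304 CPM in KO. Every KO library was above every WT library, and Ptpn22 rose by 0.92 on the log2 scale (SE 0.15, edgeR adjusted p = 0.0298). Ubash3b encodes Sts-1, a phosphatase that acts on ZAP-70, and was at 61.2, 97.8 and 84.8 CPM in WT and 179, 154 and 208 CPM in KO. It rose by 1.16 (SE 0.20, edgeR adjusted p = 0.0335). Its relative Ubash3a was at 0.62 on that scale (SE 0.17, edgeR adjusted p = 0.121). DESeq2 called Ubash3a, whereas edgeR and limma-voom did not. It falls outside the naming rule and was chosen after its values were seen.

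Both calls depended on single libraries. Without WT replicate 1, WT replicate 2, KO replicate 1 or KO replicate 3, Ptpn22 had adjusted p = 0.0863, 0.0526, 0.185 and 0.187, and Ubash3b 0.0738, 0.0594, 0.185 and 0.188. Ubash3b was also not called without KO replicate 2 (adjusted p = 0.0568) or when scaled to other T cell genes (adjusted p = 0.0605). Without WT replicate 3 both were called, with log2 fold changes of 0.86 and 1.22. With the summed lung epithelial markers in the model neither was (adjusted p = 0.158 and 0.125).

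Ptprc and Prkcq had lower values in KO and were not called by edgeR, whereas DESeq2 called both lower (adjusted p = 0.00076 and 0.00567) and limma-voom called Ptprc (adjusted p = 0.0415). Ptprc encodes CD45, the phosphatase that keeps Lck ready for activation, and was at 610, 799 and 682 CPM in WT and at 466, 475 and 422 CPM in KO (a log2 difference of -0.62, SE 0.13, edgeR adjusted p = 0.0544). Prkcq encodes protein kinase C theta, which links the receptor to NF-kB, and was at 255, 286 and 232 CPM in WT and at 160, 193 and 152 CPM in KO (-0.61, SE 0.14, adjusted p = 0.0809). For both genes every KO library was below every WT library. Among the 52 listed genes such a separation was seen for 3 downward and 6 upward, against 11.5% and 10.4% of all tested genes. Without WT replicate 3 edgeR called Ptprc and Prkcq, with adjusted p = 0.0392 and 0.0383. Of the 19 alternatives, 15 did not call Ptprc and 17 did not call Prkcq. Without WT replicate 2 the edgeR adjusted p was 0.123 for Ptprc and 0.158 for Prkcq. Without KO replicate 3 it was 0.281 and 0.340, and with the summed lung epithelial markers in the model 0.134 and 0.214.

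By role, the 16 adaptor genes had the highest median log2 fold change, 0.22, with 12 positive values and none called by edgeR. The medians were -0.03 for 6 kinases, -0.02 for 9 effector genes such as those for phospholipase C and VAV1, -0.01 for 11 phosphatases, ubiquitin ligases, CD5 and CD6, and 0.03 for 10 downstream genes such as those of the calcineurin branch. The 3 listed genes with the highest level per length were Cd5 (524 on that scale), Cd6 (430) and Dok2 (311). Cd5 and Cd6 encode inhibitory surface receptors tied to the TCR, and their log2 fold changes of 0.02 (SE 0.20) and -0.01 (SE 0.21) changed sign between alternatives. Dok2, an inhibitory adaptor gene, had 0.24 (SE 0.17, edgeR adjusted p = 0.556).

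**Figure D4:**
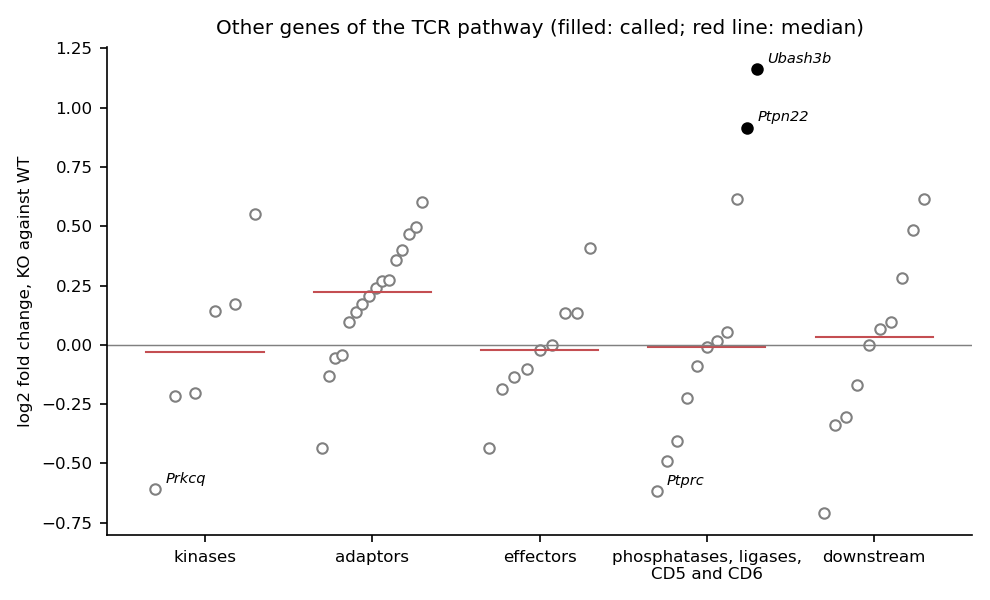
Log2 fold change of KO against WT (vertical axis) for 52 other genes of the TCR pathway, grouped by role; each circle is a gene, filled where edgeR called it, and red lines are group medians. The 2 filled circles are Ptpn22 (0.92) and Ubash3b (1.16), and the lowest values of the kinase and phosphatase groups are Prkcq and Ptprc.

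Genes that TCR signals induce were not called by edgeR, and DESeq2 and limma-voom called 2 and 1 of them lower. Of 11 such genes, all tested, 4 were nominally above and 7 below WT in the KO libraries. Over all 12720 tested genes, 5823 log2 fold changes were positive and 6897 negative. The unadjusted edgeR p was under 0.05 for 2 of the 11 genes, both lower in KO, against 9.13% of all tested genes in that direction. These were Myc, a growth regulator, with means of 113 ± 25.3 CPM for WT and 57.7 ± 7.79 CPM for KO libraries (SD, n = 3 each; edgeR adjusted p = 0.0515), and Tnfrsf9, which encodes the costimulatory receptor 4-1BB, with means of 138 ± 49.0 and 65.5 ± 6.35 CPM (edgeR adjusted p = 0.0937). DESeq2 called both lower and limma-voom called Myc, where these tools called 3.90% and 1.38% of all tested genes lower. Of 8 TCR chain genes listed, the table holds 1, Ptcra, the pre-TCR alpha gene, at 3.42 to 5.55 CPM.

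The genes whose pattern over the 6 libraries came closest to the mean of the 9 were Hnrnpm, Ccdc97, Cd2, Hist1h2ag and Timp2. Their centred log2 CPM differed from that mean by a root mean square of 0.03, 0.03, 0.04, 0.04 and 0.05, out of 6819 candidates with a mean of at least 20 CPM. With Txk left out of the mean, none of these genes was among those closest by the same rule. Cd2, a T cell adhesion receptor gene, averaged 722 ± 133 CPM over WT and 791 ± 63.3 CPM over KO libraries (SD, n = 3 each). Among the 9 themselves, Lat (0.08) and Cd3d (0.09) lay nearest to their mean and Txk (0.87) farthest from it. Compared with Txk alone, a profile chosen after the values were seen, close profiles were those of Sh3bp5, Slc25a37, Bcl6 and Plekhm3, at 0.22 to 0.29.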

How the data were processed

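The authors deposited 1 table of raw read counts per RefSeq transcript, with transcript lengths, per the file headers; bcl2fastq, Bowtie2 2.2.6, TopHat2 2.2.1 and mm10 are named in the submitters' processing notes, whereas the counting program and strand setting were not given in the sources used here. From 31682 rows, 23992 symbols were formed by taking, for each, its row of largest summed count; the number of unused sample columns was 0. Rows of a gene can count the same reads. The low-count filter was filterByExpr (counts of at least 10, totals of at least 15). Counts were scaled by TMM and tested with edgeR 4.0.16 (quasi-likelihood, robust, R 4.3.3). Benjamini-Hochberg adjustment covered 12720 genes, and a call is an adjusted p under 0.05. SE is the absolute log2 fold change over the square root of F, and 95% intervals use the t distribution. Tested on simulated data, it called more false genes than the threshold aims at and missed most of the smaller changes. Labels do not say that replicates are separate animals, and p-values therefore cover no more than the spread among these libraries, which may be technical.

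Named were the 9 genes, Crlf2 and Foxp3; of the pathway list the called genes, or the 5 of smallest p where fewer than 5 were called, and the 3 highest per length; of the induced genes the called, or the 2 of smallest p; and the 5 closest in pattern, leaving out unnamed loci. Some genes that met these rules are not reported here. Members, lists and rule were chosen with earlier results of these data known. Alternatives were DESeq2 1.42.0, limma-voom (limma 3.58.1), other scalings, no filter, the longest row, non-robust estimation, marker genes removed, a lung epithelial covariate, the replicate block and leaving out each library. One more, without WT replicate 3 and scaled to other T cell genes, was added after seeing the data.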

Additional observations from a re-analysis of the deposited data

How the results depend on the processing

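Depth limits WT replicate 2, where 3 counts are 2.08 CPM, against 0.163 to 0.376 CPM in the others. Over all genes the calls (96 higher, 125 lower) became 367 and 496 with DESeq2, 4 and 4 with the lung epithelial covariate, and 2 to 242 higher and 2 to 276 lower with single libraries left out, highest without WT replicate 3 and lowest without KO replicate 1. Higher calls were 56 when scaled to other T cell genes, 63 without robust estimation, 32 with the replicate block and 218 with the added alternative; lower calls were 57 with library totals only. Of the 9 genes, 2 were called higher with DESeq2. Calls lower were 0 with scaling to other T cell genes, the covariate or the block, and 0 to 1 with libraries left out. Of the 52 pathway genes, higher calls were 4 (DESeq2), 1 (scaled to other T cell genes), 0 (covariate), 0 (block) and 0 to 2 with libraries left out; lower calls were 3 (DESeq2), 1 (limma-voom), 1 (longest row) and 0 to 3 with libraries left out. The cause was not tested.

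Signs changed only in uncalled genes among those named by rule in the list, the 9 genes, Crlf2 and Foxp3. Cd247 was at 0.033 (limma-voom), 0.14 (library totals), 0.062 (longest row), 0.035 (covariate) and -0.17 to 0.075 with libraries left out. Foxp3 was at -0.067 without WT replicate 3 and at up to 0.47 with another library left out. Cd5 was at -0.0090 (scaled to other T cell genes), -0.12 (added alternative) and, with libraries left out, -0.20 to 0.19. Cd6 was at 0.079 (limma-voom), 0.0095 (upper quartile), 0.15 (library totals), 0.0069 (markers removed), 0.010 (no filter), 0.19 (covariate), 0.025 (block) and -0.22 to 0.18 with libraries left out. Library totals only moved the median of all genes from -0.04 to 0.14 on the log2 scale; the median of the 9 was then 0.48. Replicate numbers were no pairing: deviations of same-numbered libraries correlated at 0.08, -0.15 and -0.04. With the replicate block, Txk was at -1.46, Ptpn22 at 0.92 and Ubash3b at 1.17 (edgeR adjusted p = 0.0638, 0.0942 and 0.0701).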
